A study of Mus musculus with 8 samples.

Results

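The genes described here encode molecular chaperones and their helpers in the liver progenitor cell line BMEL, 42 genes in all, taken by symbol from a list of chaperones of the endoplasmic reticulum (ER), the cytosol and the mitochondrion. Of these, 23 belong to the ER and its stress response, 16 to the cytosol and 3 to mitochondria. A probe belonged to a gene when its RefSeq accession named that symbol, which gave 53 probes for 41 genes among 20656 genes named on the array. 39 of the 42 genes were tested among 14032 genes, namely 22 of the ER, 14 of the cytosol and 3 of mitochondria. Hspa1b had no probe by this rule. Derl3, which helps to move misfolded proteins out of the ER, was not well above background on any array, and the small heat shock gene Hspb1 was so on 1 DIFF array alone.

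BMEL is a bipotential line from the liver of mouse embryos, able to give rise to both hepatocytes and bile duct cells. All 8 arrays hold total RNA of this 1 line, untreated by any other agent the labels name, and differ by the medium, with 3 NoRX arrays, 3 CM arrays and 2 DIFF arrays. The labels expand none of these names, give no time in the medium and no composition. The series title asks how the cells respond to medium in which human amniotic epithelial cells had been grown.

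Proteins bound for secretion or for membranes fold in the ER, where the HSP70 protein BiP, the HSP90 protein GRP94, the lectins calreticulin and calnexin and the disulfide isomerases handle them. When unfolded proteins gather there, the sensors IRE1, ATF6 and PERK start the unfolded protein response: IRE1 splices the mRNA of the factor XBP1, ATF6 is cut into a free factor, and PERK slows translation and raises ATF4. These factors bind short promoter motifs such as the ER stress response element (ERSE) and raise the genes of folding and of ER-associated degradation. Unfolded proteins in the cytosol act through another factor, HSF1, which binds heat shock elements and raises the cytosolic HSP70 and HSP90 systems and the mitochondrial chaperonin. Hepatocytes secrete most plasma proteins and depend on a large ER.

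Promoters of some members that held a motif match are shown. One motif, ERSE, was held by 9 of 20 ER members with a promoter window. The members were listed as genes of the ER and its stress response, and ERSE is a motif of that response. The share is therefore a description and no independent support. RefSeq sequence of assembly GRCm38.p6 held a window of 300 bases, 250 before and 50 after a gene's start, for 33 of the 42 members, and each window was searched on both strands. The 250 bases before the start are printed 5′ to 3′ along the gene's strand, with the letters of a match that are not N in capitals. Hspa5 (BiP) lies on the plus strand with these bases at chr2:34771840-34772089, Creld2 at chr15:88819396-88819645 on the plus strand and Herpud1 at chr8:94386179-94386428 on the plus strand. Hsp90b1 (GRP94) has them at chr10:86705445-86705694 and Calr (calreticulin) at chr8:84846932-84847181, both on the minus strand. For Hspe1, on the plus strand, the 30 bases around its heat shock element matches are at chr1:55088053-55088082.
Hspa5: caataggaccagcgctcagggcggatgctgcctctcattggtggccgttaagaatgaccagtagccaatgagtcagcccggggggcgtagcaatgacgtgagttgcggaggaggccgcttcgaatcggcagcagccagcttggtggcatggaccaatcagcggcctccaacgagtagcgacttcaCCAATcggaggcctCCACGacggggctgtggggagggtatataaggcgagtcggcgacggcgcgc
Hsp90b1: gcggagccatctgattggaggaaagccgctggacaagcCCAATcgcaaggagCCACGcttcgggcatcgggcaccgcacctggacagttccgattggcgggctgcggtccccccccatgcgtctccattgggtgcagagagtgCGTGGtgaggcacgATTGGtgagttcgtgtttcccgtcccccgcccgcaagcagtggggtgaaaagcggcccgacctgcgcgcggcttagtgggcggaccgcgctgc
Calr: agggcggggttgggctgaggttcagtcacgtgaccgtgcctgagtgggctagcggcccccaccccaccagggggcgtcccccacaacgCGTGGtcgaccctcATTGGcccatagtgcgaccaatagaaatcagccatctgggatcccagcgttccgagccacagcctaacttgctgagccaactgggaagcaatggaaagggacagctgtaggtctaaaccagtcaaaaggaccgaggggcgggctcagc
Creld2: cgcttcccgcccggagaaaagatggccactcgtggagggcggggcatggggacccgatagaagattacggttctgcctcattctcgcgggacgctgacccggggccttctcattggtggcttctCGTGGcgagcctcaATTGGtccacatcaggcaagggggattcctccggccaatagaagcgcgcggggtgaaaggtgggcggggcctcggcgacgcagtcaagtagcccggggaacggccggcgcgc
Herpud1: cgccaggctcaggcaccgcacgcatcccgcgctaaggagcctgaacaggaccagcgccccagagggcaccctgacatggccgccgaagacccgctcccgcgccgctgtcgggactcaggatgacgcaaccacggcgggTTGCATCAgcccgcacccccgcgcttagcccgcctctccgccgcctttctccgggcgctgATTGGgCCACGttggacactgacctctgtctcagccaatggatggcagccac
Hspe1: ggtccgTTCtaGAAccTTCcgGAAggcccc

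ERSE was searched as CCAAT and CCACG with 9 bases of any kind between them. It was present in 39 of 32851 promoter windows (0.119%) and in those of 9 of 20 ER members: Hspa5, Hsp90b1, Calr, Canx, Creld2, Derl3, Dnajc3, Pdia6 and Syvn1. Of these, Canx and Syvn1 did not pass in DIFF against NoRX, and Derl3 was not tested. Sdf2l1, the ER member with the widest difference of DIFF from NoRX, is not among the members with a match. Not every ER member had a window, so a missing name need not mean a searched promoter. Hsp90b1 held it on both strands, 212 and 107 bases before the start, while that of Hspa5 lay 65, that of Creld2 126 and that of Calr 162 bases before it. The related ERSE-II, ATTGG and CCACG with 1 base of any kind between them, was in 12 windows (0.0365%), those of Herpud1 and Dnajb11 among them, 52 bases before the start in Herpud1. None of the 11 cytosolic and 2 mitochondrial windows held either form. The heat shock element, the triplets GAA, TTC and GAA with gaps of 2 bases of any kind, was in 198 windows (0.603%), which included Hsph1 of the cytosol and both Hspd1 and Hspe1. These last genes lie head to head and share the same bases, where a pair of overlapping matches began 89 and 84 bases before the start of Hspe1. The ATF4 site TGATGCAA was in 294 windows (0.895%), with Herpud1 the only member (112 bases before its start). The XBP1 element TGACGTGG was in 222 windows (0.676%) and in no member's. A match describes letters and not bound protein, and the windows without one lack only these letters.

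Levels below are log2 signals after subtracting the 75th percentile of the array, so a level is comparable between arrays for 1 probe but not between genes. A gene was called when limma's adjusted p was under 0.05, in 1 fit over all 8 arrays. DIFF replicate 2 stood apart: 46.4% of its spots were well above background against 50.8% to 53.5% on the others, and 1159 of its spots had uneven background against 3 to 90. It read below DIFF replicate 1 in 92.2% of all genes and in all 39 members, with a median gap of -0.23 over all genes. The median SD of a gene was 0.0637 in NoRX, 0.0641 in CM and 0.1745 in DIFF. The labels do not say that replicates were separate cultures, so p-values measure the spread between these arrays, which may be technical. Slide row 1 held the NoRX arrays and CM replicate 1, and row 2 the other arrays. All 11 liver progenitor and epithelial markers, Krt19, Epcam, Hnf4a and Sox9 among them, were well above background on every array. They did not move together: Alb read -3.8 to -2.81 in NoRX and 5.78 and 5.46 in DIFF, and Epcam -0.67 to -0.42 and then -2.18 and -2.51. Their summed signal, in units of the 75th percentile, was 1970 to 2090 in NoRX, 1490 to 1600 in CM and 1380 to 1700 in DIFF. Such a sum follows its brightest probes and is no measure of cell number. Krt8, Krt18 and Krt19 made up most of this one, and Kdr most of the endothelial one below. Of 6 stellate cell markers 1, Des, was above background on all arrays and Lrat and Pdgfrb on none, with sums of 0.633 to 0.654 in NoRX, 1.45 to 1.46 in CM and 0.277 to 0.384 in DIFF. Of 4 endothelial markers, Pecam1 and Kdr were above background on all arrays and Tek on none, with sums of 11.9 to 14.4 in NoRX, 12.4 to 13.5 in CM and 9.49 to 11 in DIFF. Of 3 erythroid markers with a probe, Hba-a1 was above background on all and Hbb-bt on none, with sums of 0.285 to 0.553, 0.263 to 0.552 and 0.814 to 0.889. The part of these markers in the results was not tested. In bulk RNA, fewer cells of a type and less RNA per cell cannot be told apart.

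**Figure D1:**
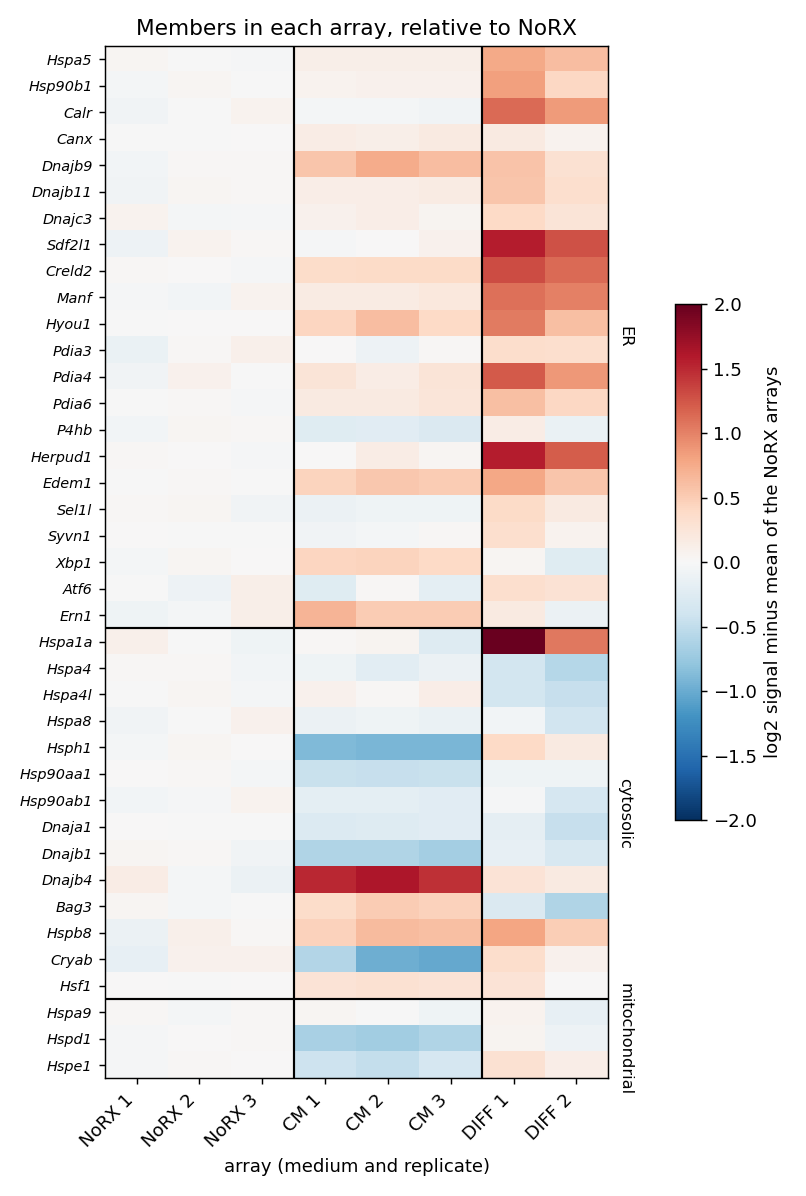
Level of each of the 39 tested members (vertical axis, grouped by compartment) in each of the 8 arrays (horizontal axis), as the log2 signal minus the mean of the 3 NoRX arrays, shown by colour. Most ER genes are red on both DIFF arrays, more so on DIFF replicate 1, while the cytosolic genes hold both colours, with Hsph1 lower in CM and Dnajb4 higher.

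Against NoRX, the DIFF arrays showed most ER members higher. These members were chosen with earlier results of these data known. Of 38 other genes of ER folding and oxidation, 6 were higher and 8 lower in DIFF. Of the 22 ER members tested, 17 were higher, none was lower and 5 did not pass limma's test (Canx, P4hb, Syvn1, Xbp1 and Ern1), where 15.4% of all genes were called higher, 28.8% lower, 44.2% either way and 24.9% with a log2 difference of at least 0.5 in size. The median ER difference was 0.48 on the log2 scale against -0.09 over all genes. Of the 14 cytosolic members, 3 were higher, 5 lower and 6 not past the test (median -0.14), and all 5 lower calls were lost when arrays were centred on their medians, which moved the median of all genes to 0.08 and that of the cytosolic members to 0.03. Of the 3 mitochondrial members, 1 was higher. The ER members numbered 17 higher and none lower under median centring too, and at an unadjusted p under 0.05 the limma fit gave 18 higher and 0 lower. The higher ER members fell to 14 with normexp background correction and to 12 with array weights, with 0 lower in either.

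Hspa5, the gene of BiP, the HSP70 of the ER lumen and the brake on all 3 stress sensors, read 7.03, 6.99 and 6.97 in NoRX, 7.12, 7.12 and 7.11 in CM, and 7.76 and 7.62 in DIFF. Both DIFF arrays lay above all 6 others. It was 1.62-fold higher in DIFF than in NoRX (log2 difference 0.69 ± 0.06 SE, adjusted p = 9.43e-06). The difference of CM from NoRX was 0.12 ± 0.06 (adjusted p = 0.11), although the CM arrays also lay above the NoRX arrays. Hsp90b1, of the lumenal HSP90, read 5.88, 5.95 and 5.91 in NoRX, 5.98, 6.0 and 6.0 in CM, and 6.73 and 6.32 in DIFF. The DIFF arrays lay above all others, and they differed from each other by more than CM did from NoRX, although the CM arrays also lay above the NoRX arrays. The difference of DIFF from NoRX was 0.62 ± 0.10 (1.53-fold, adjusted p = 5.77e-04). Calr, a calcium-binding lectin that holds glycoproteins for folding, read 4.88, 4.94 and 5.02 in NoRX, 4.90, 4.90 and 4.88 in CM, and 6.08 and 5.80 in DIFF. The NoRX and CM arrays overlapped, and DIFF was 2.00-fold above NoRX (1.00 ± 0.08, adjusted p = 4.23e-06). Its membrane-bound relative Canx ran from 5.44 to 5.63 over all arrays and was called only in CM against NoRX, at 0.15 ± 0.06 (adjusted p = 0.0396), a call lost under 12 of 23 other settings, among them each NoRX or CM array left out.

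Among the ER members, the widest differences of DIFF from NoRX were those of a lumenal cofactor and of a degradation factor. Sdf2l1, a partner of lumenal J proteins, read 1.28, 1.45 and 1.41 in NoRX, 1.36, 1.38 and 1.46 in CM, and 2.95 and 2.65 in DIFF. It was 2.68-fold higher in DIFF than in NoRX (1.42 ± 0.09, adjusted p = 6.55e-07) and 2.64-fold higher than in CM (1.40 ± 0.09, adjusted p = 4.36e-07). NoRX and CM could not be separated (0.02 ± 0.08, 95% interval -0.17 to 0.21). Herpud1, a membrane protein that organises the ubiquitin ligase of ER-associated degradation, read 5.56, 5.54 and 5.51 in NoRX, 5.54, 5.68 and 5.57 in CM, and 7.11 and 6.75 in DIFF. Here too the CM arrays overlapped with NoRX, and DIFF was 2.63-fold above NoRX (1.40 ± 0.10, adjusted p = 8.28e-07). Creld2, a lumenal protein with disulfide exchange activity, read 4.52, 4.50 and 4.48 in NoRX, 4.87, 4.88 and 4.88 in CM, and 5.80 and 5.63 in DIFF. The 3 media formed separate steps, with 0.38 ± 0.06 from NoRX to CM (adjusted p = 3.66e-04) and 0.84 ± 0.07 from CM to DIFF (adjusted p = 1.49e-06). Manf, a secreted survival factor retained by BiP, read 3.16, 3.13 and 3.26 in NoRX, 3.35, 3.35 and 3.39 in CM, and 4.28 and 4.19 in DIFF. Its groups did not overlap either, but its step to CM was small (0.18 ± 0.06, adjusted p = 0.0273) and was lost under 11 of 23 other settings, median centring and each CM array left out among them, while that from CM to DIFF was 0.88 ± 0.07 (adjusted p = 1.11e-06).

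Dnajb9, a J protein that keeps BiP on the sensor IRE1, followed another order. It read 2.08, 2.15 and 2.16 in NoRX, 2.69, 2.88 and 2.74 in CM, and 2.70 and 2.43 in DIFF. It rose in both media against NoRX, by 0.64 ± 0.08 in CM (adjusted p = 8.38e-05) and 0.43 ± 0.09 in DIFF (adjusted p = 0.00301), while CM and DIFF overlapped. A dimmer probe of Dnajb9 gave 0.73 in CM (adjusted p = 1.86e-04), did not pass in DIFF against NoRX (0.29, adjusted p = 0.0732) and was lower in DIFF than in CM (-0.45, adjusted p = 0.00719). Hyou1, the HSP110-type nucleotide exchange factor of BiP, read -2.46, -2.44 and -2.44 in NoRX, -2.01, -1.83 and -2.05 in CM, and -1.41 and -1.84 in DIFF. It was higher in CM by 0.49 ± 0.14 (adjusted p = 0.0116) and in DIFF by 0.82 ± 0.15 (adjusted p = 0.00133), with CM and DIFF again overlapping. The other J proteins of the lumen, Dnajb11 and Dnajc3, were higher in DIFF than in NoRX by 0.45 and 0.33 and did not pass in CM.

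Among the 4 disulfide isomerases of the member list, which form and reshuffle disulfide bonds, Pdia4 had the widest difference of DIFF from NoRX. It read 1.66, 1.81 and 1.72 in NoRX, 1.99, 1.88 and 1.99 in CM, and 2.96 and 2.60 in DIFF. DIFF was 2.07-fold above NoRX (1.05 ± 0.10, adjusted p = 1.33e-05), whereas the step of 0.23 ± 0.09 to CM did not pass (adjusted p = 0.0598) despite arrays that did not overlap. Pdia6 read 6.38, 6.41 and 6.36 in NoRX, 6.57, 6.56 and 6.63 in CM, and 6.99 and 6.80 in DIFF. The 3 groups were again in steps, of 0.21 ± 0.06 to CM (adjusted p = 0.0178) and 0.52 ± 0.07 from NoRX to DIFF (adjusted p = 1.61e-04). A dimmer probe of Pdia6 gave -0.17 in CM (adjusted p = 0.0583), so its direction there depended on the probe. The call of Pdia6 in CM was lost under 7 of 23 other settings. Pdia3, the partner of calreticulin and calnexin, was higher in DIFF than in NoRX by 0.35 ± 0.08 (adjusted p = 0.00507). P4hb, the founding disulfide isomerase and a subunit of collagen prolyl hydroxylase, fell in CM by 0.25 (adjusted p = 0.0143) and differed by 0.01 ± 0.08 between DIFF and NoRX. Its call in CM was lost under 6 of 23 other settings, median centring and slide row as a block among them.

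In ER-associated degradation, Edem1, which directs misfolded glycoproteins to disposal, read 2.41, 2.44 and 2.41 in NoRX, 2.86, 2.96 and 2.92 in CM, and 3.19 and 2.98 in DIFF. It was higher in CM by 0.50 ± 0.07 (adjusted p = 1.24e-04) and in DIFF by 0.67 ± 0.08 (adjusted p = 4.01e-05), and the 0.17 ± 0.08 between them did not pass (adjusted p = 0.0743). Sel1l and Syvn1, the adaptor and the ligase of one membrane complex, differed from NoRX by 0.28 (adjusted p = 0.0142) and 0.20 (adjusted p = 0.0634) in DIFF and by -0.10 and -0.03 in CM, neither past the test there. The call of Sel1l in DIFF was lost under 6 of 22 other settings.

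The sensors and factors of the response differed among themselves. Xbp1 read 6.44, 6.52 and 6.48 in NoRX, 6.91, 6.93 and 6.88 in CM, and 6.52 and 6.23 in DIFF. CM lay above every other array. Xbp1 was 1.35-fold higher in CM than in NoRX (0.43 ± 0.07, adjusted p = 6.68e-04) and fell from CM to DIFF by 0.53 (adjusted p = 2.51e-04). Ern1, the gene of IRE1, read -1.39, -1.34 and -1.18 in NoRX, -0.62, -0.80 and -0.80 in CM, and -1.13 and -1.42 in DIFF. The CM arrays were again the highest, with 0.56 ± 0.11 in CM (adjusted p = 0.00136), 0.03 ± 0.12 in DIFF (adjusted p = 0.87) and a fall of 0.53 from CM to DIFF (adjusted p = 0.0032). Atf6 read -0.18, -0.28 and -0.06 in NoRX, -0.41, -0.15 and -0.37 in CM, and 0.17 and 0.12 in DIFF. The DIFF arrays lay above all others, by 0.32 ± 0.10 from NoRX (adjusted p = 0.0286) and 0.46 ± 0.10 from CM (adjusted p = 0.0029). The call against NoRX was lost under 9 of 22 other settings, among them DIFF replicate 1, NoRX replicate 1 or NoRX replicate 2 left out. The arrays measure total mRNA of each gene, not the splicing of Xbp1 or the cleavage of ATF6.

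**Figure D2:**
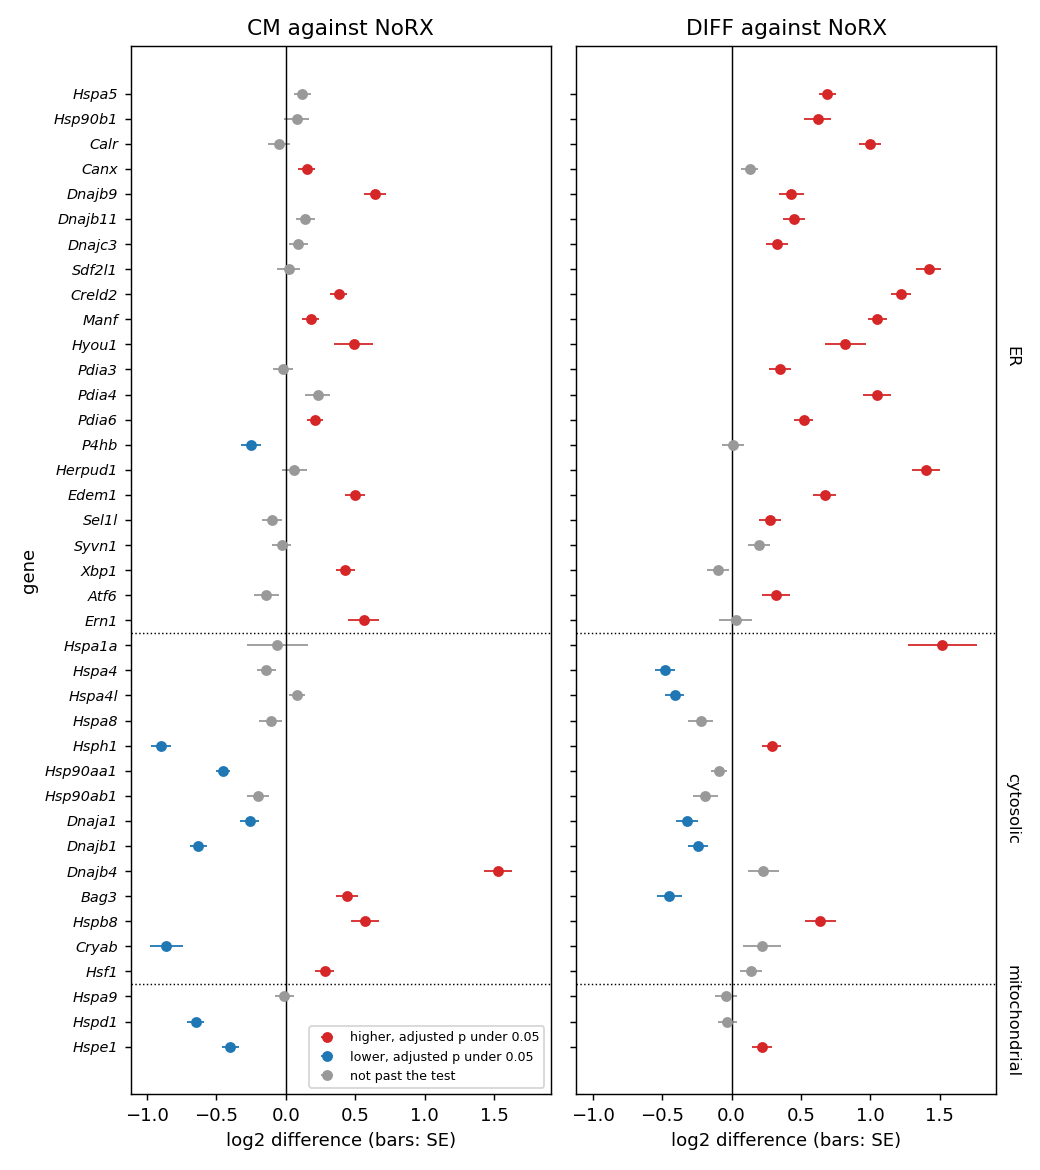
Log2 difference (horizontal axis) of each tested member (vertical axis) in CM against NoRX, left, and DIFF against NoRX, right, with bars of 1 SE and colour for genes past an adjusted p of 0.05. In the right panel 17 of 22 ER members are past the test and all of these are higher, led by Sdf2l1 at 1.42, while in the left panel the widest differences are those of Dnajb4 at 1.53 and Hsph1 at -0.90.

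Set side by side, the comparisons of CM and of DIFF with NoRX share the NoRX arrays and are not independent. 11 ER members were called only in DIFF: Hspa5, Hsp90b1, Calr, Dnajb11, Dnajc3, Sdf2l1, Pdia3, Pdia4, Herpud1, Sel1l and Atf6. Each of these 11 was also higher in DIFF than in CM. They were picked by calls on the same DIFF arrays, so this count is no separate support. For Dnajc3 the call of DIFF against CM was lost under 8 of 22 other settings. In both media 6 members were higher, namely Dnajb9, Creld2, Manf, Hyou1, Pdia6 and Edem1. Of those 6, Creld2, Manf and Pdia6 were higher in DIFF than in CM. Canx, Xbp1 and Ern1 were called higher in CM and did not pass in DIFF. Xbp1 and Ern1 were lower in DIFF than in CM, whereas Canx differed by -0.03 ± 0.06 between them (adjusted p = 0.724). Over all genes, 27.7% were called higher in CM and 15.4% in DIFF. How many of all genes shared each pattern was not counted, so these counts only describe the members.

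Fewer ER members were called in CM. Against NoRX, 9 of 22 were higher, 1 was lower and 12 did not pass, in a comparison where 54.4% of all genes were called, 27.7% higher and 26.7% lower. The ER differences ran from -0.25 (P4hb) to 0.64 (Dnajb9), with a median of 0.13 against 0.01 over all genes. The arrays of the groups did not overlap in 15 of 22 ER members, beside 71.1% of all genes. Of the cytosolic members 4 were higher and 5 lower of 14 (median -0.12), and of the mitochondrial members 2 of 3 were lower (median -0.40). With slide row as a block, 5 ER members stayed higher, Dnajb9, Creld2, Edem1, Xbp1 and Ern1. The blocked difference sets CM replicate 1, the only CM array in row 1, against the NoRX arrays. It is the same difference as within row 1, so these are not separate checks, and both rest on 1 CM array. Leaving out CM replicate 3 left 6 ER members called.

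The cytosolic chaperones went both ways in CM. Hsph1, the HSP110 exchange factor of cytosolic HSP70, read 3.43, 3.52 and 3.48 in NoRX, 2.60, 2.56 and 2.57 in CM, and 3.87 and 3.66 in DIFF. By its brightest probe it was lowest in CM and highest in DIFF without overlap. It fell by 0.90 in CM (1.87-fold, adjusted p = 1.72e-06), rose by 0.29 ± 0.07 in DIFF against NoRX (adjusted p = 0.00998) and was 2.28-fold higher in DIFF than in CM (adjusted p = 2.36e-07). Its spot lay on uneven background on 3 arrays (CM replicates 2 and 3 and DIFF replicate 2), and with such spots left out the differences were -0.88 in CM and 0.39 in DIFF against NoRX (adjusted p = 0.00115). The rise in DIFF against NoRX was lost with normexp, with slide row as a block and with array weights. A dimmer probe of Hsph1 did not pass there (0.2, adjusted p = 0.0982). Dnajb1, the HSF1-induced J protein that recruits HSP70, read 6.12, 6.11 and 6.01 in NoRX, 5.48, 5.48 and 5.40 in CM, and 5.91 and 5.76 in DIFF. CM was lowest and NoRX highest. It fell by 0.63 in CM (adjusted p = 1.53e-05), and by 0.24 in DIFF (adjusted p = 0.0177), a call lost under median centring. Hsp90aa1, the inducible cytosolic HSP90, read 6.37, 6.39 and 6.33 in NoRX, 5.92, 5.91 and 5.92 in CM, and 6.28 and 6.27 in DIFF. It fell by 0.45 in CM (adjusted p = 3.98e-05), and its -0.09 ± 0.06 in DIFF did not pass (adjusted p = 0.226).

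The constitutive relatives showed smaller differences. Hsp90ab1 read 8.40, 8.43 and 8.52 in NoRX, 8.26, 8.26 and 8.23 in CM, and 8.42 and 8.11 in DIFF, and was called in no comparison, at -0.20 ± 0.08 in CM (adjusted p = 0.0513). Hspa8, the constitutive HSP70, read 8.52, 8.58 and 8.67 in NoRX, 8.48, 8.50 and 8.46 in CM, and 8.54 and 8.20 in DIFF. The CM arrays lay just below the NoRX arrays, at -0.11 ± 0.08 (adjusted p = 0.321), and 1 DIFF array lay within the range of these 6 and the other below it. Its other 2 probes gave -0.22 and -0.25 in CM, both called lower. Dnaja1, a farnesylated J protein, fell by 0.26 in CM (adjusted p = 0.00975) and by 0.32 in DIFF (adjusted p = 0.00741). Both calls were lost under median centring and with slide row as a block, and that in CM with normexp too.

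Hspa1a, the stress-induced HSP70, read -2.95, -3.06 and -3.13 in NoRX, -3.02, -2.99 and -3.30 in CM, and -1.07 and -1.99 in DIFF. The DIFF arrays lay above all others yet nearly 1 unit apart. The difference from NoRX was 1.52 ± 0.25 (2.86-fold, adjusted p = 5.41e-04) and from CM 1.57 ± 0.25 (adjusted p = 2.52e-04), with -0.06 ± 0.22 between CM and NoRX. Hspa1b is a near-identical copy, and whether the probe separates these genes was not checked. Hspa4l, a testis-rich HSP110 relative, read 3.93, 3.98 and 3.90 in NoRX, 4.03, 3.96 and 4.07 in CM, and 3.57 and 3.48 in DIFF. It was lowest in DIFF and fell there by 0.41 against NoRX (adjusted p = 4.90e-04) and by 0.50 against CM (adjusted p = 7.59e-05). Both calls were lost under median centring.

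Hspa4, another HSP110 relative, gave opposite answers with different probes. Its brightest probe, A_55_P2054157, read 6.95, 6.95 and 6.87 in NoRX, 6.83, 6.72 and 6.81 in CM, and 6.55 and 6.35 in DIFF. By that probe DIFF was lowest, by -0.48 ± 0.07 against NoRX (adjusted p = 4.46e-04) and -0.34 ± 0.07 against CM (adjusted p = 0.00263), and the -0.14 ± 0.07 of CM did not pass (adjusted p = 0.109). The probe A_51_P200477 read 3.14, 3.22 and 3.27 in NoRX, 1.36, 1.26 and 1.46 in CM, and 3.07 and 2.74 in DIFF. By this one CM was lowest, at -1.85 against NoRX (adjusted p = 1.24e-07), and DIFF was higher than CM by 1.55 (adjusted p = 3.90e-07). The third, A_55_P2061025, read 0.72, 1.40 and 1.57 in NoRX, -0.64, -0.87 and -0.77 in CM, and 1.16 and 0.75 in DIFF. It sided with A_51_P200477, at -1.99 in CM against NoRX and 1.72 in DIFF against CM. The direction of Hspa4 between DIFF and CM is therefore unsettled here. The several probes of Cryab, Hsph1 and Hspe1 were each called lower in CM.

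**Figure D3:**
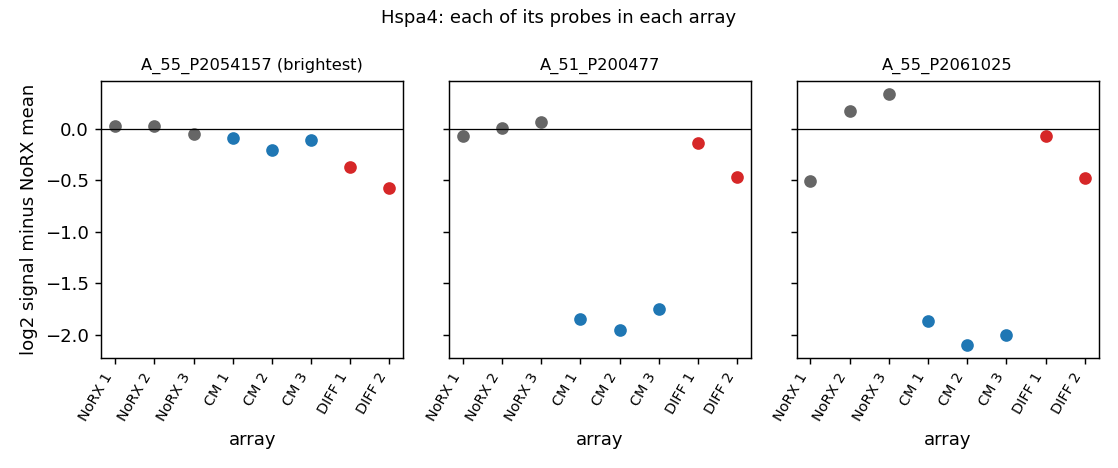
Log2 signal minus the NoRX mean (vertical axis) of each of 3 Hspa4 probes (panels) in each array (horizontal axis, points coloured by medium). For the brightest probe the CM arrays lie between NoRX and DIFF, and for the other 2 probes they lie nearly 2 units below NoRX, at -1.85 and -1.99.

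In CM, the co-chaperones Dnajb4 and Bag3 and the small heat shock gene Hspb8 moved against Hsph1 and Dnajb1, while Cryab fell with them. Dnajb4, a J protein linked to muscle and to E-cadherin, read -1.50, -1.69 and -1.76 in NoRX, -0.14, -0.03 and -0.19 in CM, and -1.37 and -1.47 in DIFF. CM stood clear of both other groups, 2.89-fold above NoRX (1.53 ± 0.10, adjusted p = 6.98e-07), and DIFF fell by 1.30 from CM (adjusted p = 2.42e-06). Bag3, which links HSP70 to selective autophagy, read 3.82, 3.75 and 3.78 in NoRX, 4.15, 4.29 and 4.25 in CM, and 3.49 and 3.18 in DIFF. The media ranked CM, NoRX, DIFF without overlap, with 0.44 ± 0.08 in CM (adjusted p = 8.99e-04), and a fall of 0.45 in DIFF against NoRX (adjusted p = 0.00226) that was lost under median centring. Hspb8, the small heat shock partner of BAG3, read -0.14, 0.07 and -0.01 in NoRX, 0.44, 0.60 and 0.58 in CM, and 0.77 and 0.46 in DIFF. It rose in both media, by 0.57 ± 0.10 in CM (adjusted p = 5.81e-04) and 0.64 ± 0.11 in DIFF (adjusted p = 6.89e-04), and these overlapped. Cryab, a small heat shock protein of lens and muscle, read 3.52, 3.77 and 3.78 in NoRX, 3.11, 2.72 and 2.66 in CM, and 4.04 and 3.78 in DIFF. It fell by 0.86 in CM (adjusted p = 2.00e-04) and was 2.11-fold higher in DIFF than in CM (adjusted p = 6.42e-05), while its 0.22 ± 0.14 against NoRX did not pass (adjusted p = 0.235).

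Hsf1, the factor itself, read 2.98, 2.96 and 2.98 in NoRX, 3.25, 3.28 and 3.24 in CM, and 3.24 and 2.98 in DIFF. It was higher in CM by 0.28 ± 0.07 (adjusted p = 0.00652), a call lost under median centring and with slide row as a block. The DIFF arrays reached from the NoRX level to the CM level (0.14 ± 0.08, adjusted p = 0.192).

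In mitochondria, the chaperonin pair fell in CM. Hspd1, of the barrel-forming HSP60, read 6.70, 6.74 and 6.75 in NoRX, 6.08, 6.04 and 6.13 in CM, and 6.78 and 6.63 in DIFF. CM was lowest, by -0.65 ± 0.06 against NoRX (1.56-fold, adjusted p = 8.75e-06), and DIFF overlapped with NoRX (-0.03 ± 0.07, adjusted p = 0.763). Hspe1, of its lid HSP10, read 5.95, 5.99 and 5.97 in NoRX, 5.56, 5.50 and 5.64 in CM, and 6.27 and 6.10 in DIFF. It fell by 0.40 in CM (adjusted p = 3.58e-04), and DIFF was above CM by 0.62 ± 0.07 (adjusted p = 2.63e-05) and above NoRX by 0.22 ± 0.07 (adjusted p = 0.0315), the last lost under 13 of 22 other settings. Both genes share the heat shock element shown above. Hspa9, the HSP70 of the matrix, read 5.81, 5.76 and 5.81 in NoRX, 5.83, 5.79 and 5.71 in CM, and 5.86 and 5.63 in DIFF, and its groups overlapped in all 3 comparisons.

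DIFF was also compared with CM directly. Of 22 ER members 16 were higher, 2 lower and 4 not past the test (median 0.35), where 25.1% of all genes were called higher, 35.6% lower and 60.7% either way, with a median of -0.10. With normexp background correction 11 ER members were higher and 2 lower, and with array weights 11 and 1. The groups did not overlap in 19 of 22 ER members, beside 69.7% of all genes. Of 14 cytosolic members 5 were higher and 4 lower (median -0.02), and of 3 mitochondrial members 2 were higher (median 0.62). The 5 higher cytosolic members were Hspa1a, Hsph1, Hsp90aa1, Dnajb1 and Cryab, of which all but Hspa1a were lower in CM than in NoRX. Within slide row 2, thus without CM replicate 1, 14 ER members were higher and 2 lower.

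Array by array, the median ER member stood at 0.13, 0.14 and 0.14 above the NoRX mean in CM and at 0.59 and 0.38 in DIFF. The cytosolic median was -0.10, -0.14 and -0.17 in CM and -0.04 and -0.21 in DIFF. The mitochondrial median was -0.41, -0.47 and -0.33 in CM and 0.07 and -0.10 in DIFF. The median of all genes lay within 0.02 of the NoRX level in CM, but at 0.02 and -0.22 in the DIFF arrays, so the cytosolic median of DIFF replicate 2 was close to that of all genes. The ER median minus the median of the cytosolic and mitochondrial members combined, which cancels such a shift, was 0.23, 0.32 and 0.36 in CM and 0.54 and 0.48 in DIFF. Its SD between replicates, pooled over the 3 groups, was 0.0463. The NoRX arrays lie near 0 because their mean was subtracted. The members were chosen with earlier results known, so these values are a description and were not tested. Both DIFF arrays lay above all NoRX arrays in 19 of 22 ER, 4 of 14 cytosolic and 1 of 3 mitochondrial members, and below all of them in 6 cytosolic members. Over all genes, the groups did not overlap, in either direction, in 58.9% for DIFF against NoRX.

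**Figure D4:**
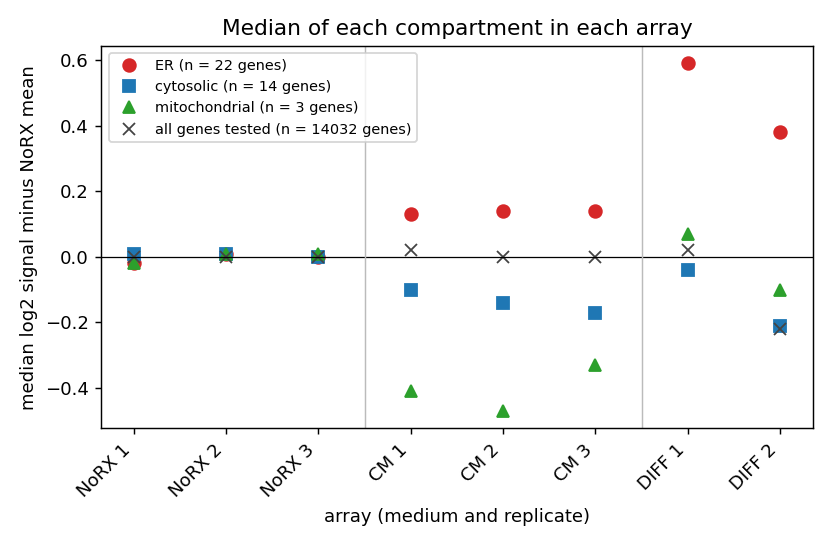
Median log2 signal minus the NoRX mean (vertical axis) of the ER, cytosolic and mitochondrial members and of all genes tested (marker shapes) in each array (horizontal axis). The ER points rise to 0.59 and 0.38 in DIFF, and the mitochondrial points fall to between -0.33 and -0.47 in CM.

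DIFF and NoRX shared no slide row, and with row as a block, estimated through CM, 10 ER members stayed higher in DIFF: Hspa5, Hsp90b1, Calr, Sdf2l1, Creld2, Manf, Pdia4, Pdia6, Herpud1 and Edem1. Without DIFF replicate 1, 16 ER members were higher and 1 lower, and without DIFF replicate 2, 20 were higher and none lower. In each case 1 DIFF array was left, which was assumed to vary like the other groups.

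Other genes of the same pathways were called both ways, and the counts of lower genes in DIFF shrank under median centring. Over all genes the shares called were 27.7% higher and 26.7% lower in CM, and 15.4% higher and 28.8% lower in DIFF, against which the counts below are to be read. Of 38 other genes of ER folding and oxidation, 14 were higher and 7 lower in CM against NoRX, and 6 higher and 8 lower in DIFF (median 0.06), or 6 and 3 under median centring. Ero1b, an oxidase that recharges the disulfide isomerases, rose 2.22-fold in CM and 2.39-fold in DIFF. Its relative Ero1a, which hypoxia induces, split the media, at 4.77, 4.87 and 4.69 in CM against 3.95, 3.91 and 3.99 in NoRX and 3.47 and 3.16 in DIFF. Pdia5 was higher in DIFF by 0.90 ± 0.12 (adjusted p = 1.12e-04), while the pancreas-rich isomerase Pdia2 fell by 2.10 (adjusted p = 6.99e-06). Of 21 other genes of ER-associated degradation, 9 were higher and 3 lower in CM, led by Herpud2 (0.79), Derl1 (0.78) and Faf2 (0.75). In DIFF 5 were higher and 6 lower, or 5 and none under median centring, with Selenok (0.76), Os9 (0.58) and Selenos (0.50) the highest. These 11 calls numbered 7 without NoRX replicate 1, 6 without NoRX replicate 2 or 3 and 6 with the replicate block.

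Of 19 other genes of stress signalling, 6 were higher and 5 lower in CM, and 6 higher and 2 lower in DIFF, or 8 and 1 under median centring. The 8 called in DIFF numbered 14 without DIFF replicate 1. Ddit3, the CHOP factor downstream of PERK, read 3.65, 3.66 and 3.67 in NoRX, 4.93, 4.79 and 4.69 in CM, and 4.25 and 4.10 in DIFF. It was highest in CM, 2.21-fold above NoRX (adjusted p = 6.13e-07), and rose by 0.52 in DIFF (adjusted p = 4.25e-04). Chac1, a glutathione-degrading target of ATF4 and CHOP, went the other way in CM and fell by 1.12 (adjusted p = 1.68e-06). Ppp1r15a, which undoes the translation block of PERK, was higher in DIFF by 0.55 ± 0.08 (adjusted p = 3.44e-04). Creb3l2, a cousin of ATF6, was 1.88-fold higher in DIFF than in NoRX (adjusted p = 2.20e-05), whereas the liver factor Creb3l3 fell there by 1.47 (adjusted p = 2.40e-07) and rose by 0.64 in CM (adjusted p = 5.05e-05).

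Of 28 genes of ER translocation and N-glycosylation, 12 were higher and 1 lower in CM, and 9 higher and 3 lower in DIFF, with medians of 0.13 and 0.07. The 12 called in DIFF numbered 4 without NoRX replicate 1 or 2, 6 without NoRX replicate 3, 7 without CM replicate 1 or 2 and 6 with the replicate block. With normexp background correction the latter became none higher and 1 lower. The channel genes Sec61a1 and Sec61a2 were opposed: Sec61a1 fell by 0.43 in CM and was higher by 0.29 in DIFF, while Sec61a2 rose by 1.13 in CM and fell by 0.65 in DIFF. Of 34 tested partners of cytosolic HSP70 and HSP90, 9 were higher and 12 lower in CM, and 2 higher and 12 lower in DIFF (median -0.15), or 2 and 5 under median centring (median 0.02). Those 14 calls in DIFF numbered 9 without NoRX replicate 1. Fkbp5, an HSP90 co-chaperone that glucocorticoids induce, read 3.34, 3.34 and 3.28 in NoRX, 3.55, 3.63 and 3.70 in CM, and 7.31 and 7.0 in DIFF, where it was 14.3-fold above NoRX (adjusted p = 4.01e-10). Of 14 genes of the cytosolic chaperonin and prefoldin, 4 were higher and 5 lower in CM, or 5 and 2 with normexp. The chaperonin subunits Cct3, Cct6a and Cct2 were its lowest, at -0.48, -0.33 and -0.31. Of 13 tested mitochondrial folding and protease genes, 5 were higher and 2 lower in CM. Atf5, a factor of the mitochondrial stress response, fell by 1.60 in CM (adjusted p = 4.72e-08) and the protease gene Afg3l2 rose by 1.08 (adjusted p = 2.61e-07).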

How the data were processed

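RNA of 8 samples was measured on 1-colour Agilent mouse arrays. The deposited files hold spot intensity values from Agilent Feature Extraction, version 11.0.1.1 by the submitters' processing notes, which the authors left background-subtracted and detrended, per the file headers. The value table of the series repeats them (largest difference 0). No spot was saturated. The precision is limited by the number of arrays.

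Log2 processed signals were taken minus each array's 75th percentile. Control spots and outlier spots were left out and spots of 1 probe averaged. Of 55681 probes, 27229 matched a RefSeq accession of assembly GRCm38.p6, which gave names only, since the array design used mm9. Probes not well above background on 2 or more arrays were dropped, and a gene's brightest probe was used, for 14032 genes with 30 missing values. Groups were compared in R 4.3.3 by limma 3.58.1 (lmFit and a trended eBayes, two-sided, Benjamini-Hochberg adjustment over all genes) in 1 fit over all arrays. The steps were tested on simulated data, with 1 SD per gene shared by all groups and changes put into CM only. That simulation could not test how the fit deals with the wider spread of the DIFF arrays. Groups and replicate numbers came from the sample titles. Another label numbers both DIFF arrays as replicate 1, so a fit with them averaged was among the 23 alternatives, which also covered scaling, background (normexp with an offset of 50), filters, probes, slide row, array weights and left-out arrays. Figures used matplotlib 3.10.9.

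The members and the lists of related genes were chosen with earlier results of these data known. Levels by array are given for members called with an absolute log2 difference of at least 0.5 and for a fixed panel, and up to 3 genes per direction were eligible to be named from each other list. A list of markers of another cell type is not reported here.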

Additional observations from a re-analysis of the deposited data

How the results depend on the processing

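Over the 39 members, 3 comparisons and all settings, 2415 values kept direction and side of the threshold, 137 lost and 87 gained the call, and 5 reversed while called in at least 1 setting. Calls kept under every planned setting numbered 14 of 21 in CM against NoRX, 11 of 26 in DIFF against NoRX and 17 of 29 in DIFF against CM. The ER members called in CM (10) numbered 6 with median centring, 5 with normexp, 5 with slide row as a block and 6 to 14 when 1 array was left out. Those called in DIFF against NoRX (17) numbered 10 with the row block, 12 with array weights and 14 with normexp. The cytosolic and mitochondrial members called there (9) numbered 5 with median centring and 3 with the row block. When 1 array was left out, genes called there in the other lists numbered 10 to 21 for ER folding, 6 to 13 for ER-associated degradation, 7 to 14 for stress signalling, 4 to 18 for translocation, 9 to 19 for cytosolic partners, 3 to 13 for the chaperonin and 4 to 10 for mitochondrial folding. All genes called there (6200) numbered 3039 with the row block and 3462 with array weights. The ER median minus that of the other members was 0.27 in CM and 0.17 with quantile normalization. In DIFF against NoRX it was 0.53, 0.48 with the row block and 0.48 to 0.56 when 1 array was left out. In DIFF against CM it was 0.34, 0.29 with no filter, 0.25 with the mean of a gene's probes and 0.27 to 0.39 when 1 array was left out. Reversed values were those of Hspa4 in DIFF against CM (0.98 with the mean of its probes, 1.55 and 1.72 with other probes), Pdia6 in CM with another probe (-0.17), Hsp90ab1 in DIFF against CM without DIFF replicate 1 (-0.14, adjusted p = 0.0349, with 1 DIFF array left that was assumed to vary like the others), and, outside the members, Dnaja4 with normexp (0.13 in DIFF against CM, 0.04 against NoRX). The cause was not tested. Median centring turned the split of all genes called in DIFF against NoRX from 2163 higher and 4037 lower to 2426 higher and 1929 lower, and in DIFF against CM from 3527 higher and 4995 lower to 4174 higher and 2887 lower. Hspa8 had no DIFF value with spots on uneven background left out. The use of single probes was chosen after seeing the data. For normexp the median spot signal stood in for the mean signal, which was not used here. Numbers did not pair the arrays: same-numbered NoRX and CM arrays deviated with r of -0.0073, 0.0095 and -0.0569, NoRX and DIFF arrays with -0.0239 and -0.0249, and CM and DIFF arrays with 0.0866 and 0.1745. With the replicate block, 8 ER members were called in CM and 15 in DIFF against NoRX. Signal over background limits Hspa1a and Hyou1, the dimmest members tested.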
